A study of Mus musculus with 4 samples.

Results

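The collagen genes of mouse were followed in primary cultures of osteocytes that lack the nuclear receptor PPARα (αKO) and in cultures from WT mice. They were chosen by symbol alone, as every gene of the count table written Col, a number, the letter a and a number, which gave 44 of 37411 genes. Of these, 32 held enough counts to be tested, among 13571 genes tested in all. The 44 genes were grouped by the assembly their proteins form: 11 fibrillar, 9 FACIT (collagens that sit on the surface of fibrils), 9 network-forming, 6 beaded-filament, 4 transmembrane, 2 multiplexin and 3 others.

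RNA was sequenced from 4 cultures, 2 of the genotype PPARa KO and 2 of the genotype PPARa WT. All 4 came from the osteocyte-enriched cell fraction of the femur, and their labels give the strain C57BL/6, an age of 5 months, 6 days of growth ex vivo and no treatment. The study's methods describe the αKO mice as a whole-body knockout, 129S4/SvJae-Ppara tm1Gonz/J, in which a neomycin resistance cassette replaces part of a Ppara exon, and they give a higher age, a longer culture and plates coated with collagen. The authors' own comparison names DMSO for both genotypes, and no source used here gives a vehicle for these cultures. The labels number the libraries as biological replicates and do not say whether cultures came from single or pooled animals, so that every p-value below measures the spread between 2 libraries per genotype, which may be technical.

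Total counts ranged from 25136628 to 27496137 per library. Ppara was near the floor, with 15 and 9 counts in αKO and 16 and 13 counts in WT osteocytes. The WT libraries lay far apart from each other: 8.61% of all genes tested differed by more than 2-fold between αKO replicates 1 and 2, against 32.9% between WT replicates 1 and 2, so values without each WT library in turn are given for the collagen genes and marker lists they move most. Of 8 osteocyte markers only 4 were abundant enough to test, and Sost and Fgf23 were at 0 counts in all 4 libraries. The markers summed to 79.6 and 39.4 CPM in αKO and to 226 and 227 CPM in WT osteocytes. Most of that sum was Pdpn, at 76.3 and 31.7 CPM in αKO, against 196 and 201 CPM in WT. Macrophage markers summed to 33851 and 28345 CPM in αKO and to 22687 and 13464 CPM in WT osteocytes, with all 15 higher in αKO in the fitted change, 7 of them at an unadjusted p under 0.05 (2.81% of all genes were higher in αKO at that threshold). CPM are counts relative to the size of the library, scaled by TMM. In such bulk RNA, fewer cells of a type and less RNA per cell cannot be told apart.

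A collagen is a trimer of α chains wound into a helix, and each chain carries long stretches of the repeat Gly-X-Y, since only glycine fits at the centre of the helix. In fibrillar collagens the repeat runs almost without a break through the chain, and the trimers pack side by side into fibrils. The other classes break the repeat, and among them are trimers that form sheets or beaded filaments or are anchored in a membrane. Bone matrix is built mainly of type I collagen, made by osteoblasts from Col1a1 and Col1a2 and then mineralized, while osteocytes are the cells that stay embedded in it.

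The repeat was read directly from the annotated transcripts (GENCODE vM21, build GRCm38), and its longest run parts the fibrillar genes from all others. The longest unbroken run of Gly-X-Y codons held 216 to 344 triplets in the 11 fibrillar genes (median 338) and 23 to 113 triplets in the 33 others (median 45). The first 81 bases of that run are shown for the type I pair, which led all collagens in level, for Col2a1 and the type IV pair, which among collagens with a mean of at least 10 CPM differed most between the WT libraries, and for Col6a1 and Col6a2, whose αKO libraries both lay above both WT libraries. The stretches lie at chr11:94939451-94939930, plus strand, exons 6 to 8 (Col1a1), at chr6:4512406-4515507, plus strand, exons 6 to 8 (Col1a2), at chr15:97996516-97997320, minus strand, exons 8 to 10 (Col2a1), at chr8:11247033-11267614, minus strand, exons 2 to 3 (Col4a1), at chr8:11429447-11429527, plus strand, exon 29 (Col4a2), at chr10:76719632-76720996, minus strand, exons 8 to 9 (Col6a1) and at chr10:76611957-76613290, minus strand, exons 5 to 6 (Col6a2). All are coding, and the coordinates include the introns where exons are joined. Glycine codons are in capitals.
Col1a1: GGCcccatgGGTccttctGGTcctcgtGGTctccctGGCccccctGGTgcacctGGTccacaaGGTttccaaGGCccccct
Col1a2: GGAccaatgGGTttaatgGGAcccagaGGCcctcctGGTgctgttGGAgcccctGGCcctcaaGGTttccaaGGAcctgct
Col2a1: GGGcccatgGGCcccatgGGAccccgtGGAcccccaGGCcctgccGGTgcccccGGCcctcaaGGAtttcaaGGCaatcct
Col4a1: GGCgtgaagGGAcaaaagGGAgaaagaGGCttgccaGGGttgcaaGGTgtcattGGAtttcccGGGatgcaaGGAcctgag
Col4a2: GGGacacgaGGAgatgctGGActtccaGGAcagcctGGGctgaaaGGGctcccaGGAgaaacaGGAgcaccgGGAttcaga
Col6a1: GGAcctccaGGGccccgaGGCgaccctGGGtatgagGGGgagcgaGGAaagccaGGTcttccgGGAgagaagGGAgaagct
Col6a2: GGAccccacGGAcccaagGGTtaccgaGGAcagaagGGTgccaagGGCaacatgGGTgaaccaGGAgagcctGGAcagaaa
The runs of Col1a1, Col1a2 and Col2a1 held 338, 339 and 339 triplets, those of Col4a1 and Col4a2 held 40 and 66, and those of Col6a1 and Col6a2 held 87 each. Because the codons of glycine start with GG and those of proline with CC, the runs are rich in G and C: 53.6% to 67.1% over the 44 genes (median 62.4%). The last base of the codon was poorer, where the share of G and C was 22.6% to 53.4% (median 39.4%).

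Per length, type I collagen was the most abundant collagen in every library. Levels between genes are compared in TPM (counts per length, scaled by the authors to the same sum in every library). Col1a2 was at 1951 and 2034 TPM in αKO osteocytes, against 2349 and 2290.2 TPM in WT osteocytes. Col1a1 was at 1435 and 1889 TPM in αKO osteocytes, against 1294 and 2391 TPM in WT osteocytes. Col1a2 thus ranked first and Col1a1 next in both αKO libraries and in WT replicate 1, and the order was turned in WT replicate 2. Col3a1 (type III, a homotrimer of soft and vascular tissue) and Col5a2 (type V, found in the core of type I fibrils) followed, with Col3a1 at 588 and 719.6 TPM in αKO osteocytes, against 676 and 717 TPM in WT osteocytes, and Col5a2 at 585 and 574 TPM in αKO osteocytes, against 636 and 852 TPM in WT osteocytes. The WT range of Col5a2 reached over that of Col3a1, so these neighbours in the order did not differ beyond their spread. Col6a1 and Col5a1 came next in each library except WT replicate 2, where Col4a1 stood between them.

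Fibrillar genes held 82.7% and 82.4% of the summed collagen TPM in αKO osteocytes and 85.1% and 84.1% in WT osteocytes. Beaded-filament genes held 9.83% and 10.1% in αKO and 8.40% and 6.07% in WT. Network-forming genes held 4.56% and 5.19% in αKO and 3.84% and 7.61% in WT, and FACIT genes 2.48% and 1.81% in αKO and 2.51% and 1.87% in WT. Multiplexin, transmembrane and other collagens together made up the small rest. The αKO libraries lay above both WT libraries for the beaded-filament class and below both for the fibrillar class, and overlapped them for the network-forming and FACIT classes.

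**Figure D1:**
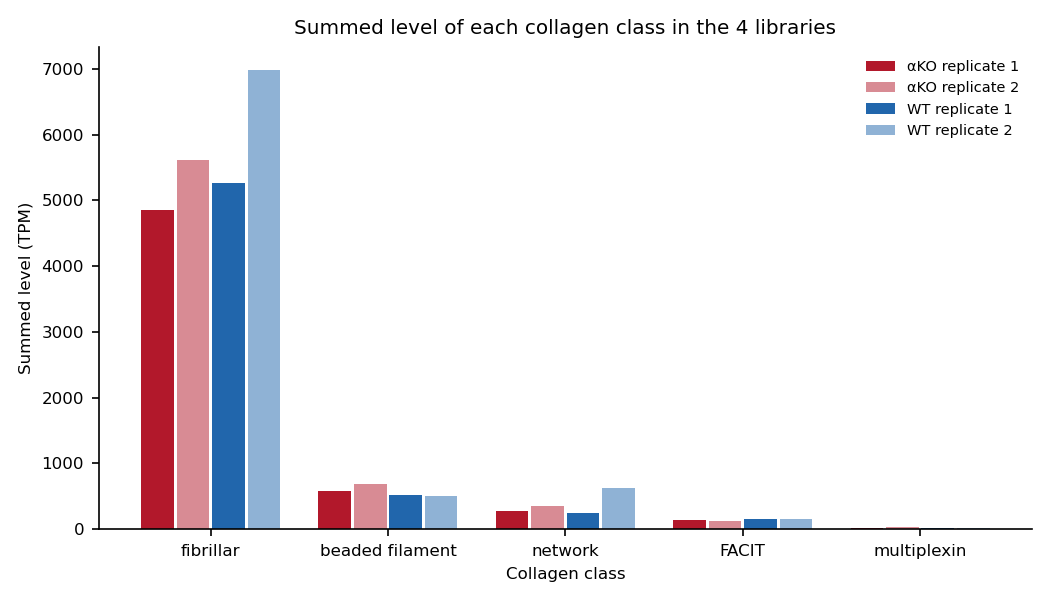
Summed level of each of the 5 most abundant collagen classes (y axis, TPM) in αKO replicates 1 and 2 (dark and light red) and WT replicates 1 and 2 (dark and light blue); each bar is 1 library and there are no error bars. Fibrillar genes summed to 4859 and 5614 TPM in αKO and to 5268 and 6985 TPM in WT, and network-forming genes summed to 238 and 632 TPM in the WT libraries.

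The share of RNA that coded for collagens did not part the genotypes. Collagen transcripts made up 1.45% and 1.78% of all gene counts in αKO osteocytes and 1.44% and 2.10% in WT osteocytes, or 1.61 ± 0.235% in αKO and 1.77 ± 0.463% in WT (SD, n = 2 each). The difference, −0.159 percentage points, was smaller than the spread between the WT libraries (exact two-sided permutation test, p = 1; the smallest p this design allows is 0.33).

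In edgeR's quasi-likelihood test, with Benjamini-Hochberg adjustment over all genes tested, no collagen gene reached an adjusted p under 0.05 (lowest adjusted p = 0.902), and neither did any other gene (0% of 13571). At an unadjusted p under 0.05, 1 of 32 collagen genes passed (3.12%), against 732 of 13571 genes in all (5.39%; 2.81% higher and 2.59% lower in αKO). The 1 gene was Col25a1, lower in αKO. The median log2 fold change of αKO over WT was −0.15 over the 32 genes and −0.0083 over all genes, with 21 collagen genes below 0 and 11 above, a share of 65.6% below 0 beside 50.8% of all genes. The αKO and WT libraries did not overlap for 8 of the 32 genes (25%), beside 33.2% of all genes. Both αKO libraries lay above both WT libraries for 5 collagen genes, Col6a1, Col6a2, Col6a4, Col8a2 and Col18a1 (15.6%, beside 17.1% of all genes), and below both for 3, Col6a3, Col11a1 and Col25a1 (9.38%, beside 16% of all genes). Each share of collagen genes without overlap was near or under that of all genes.

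No other test of all 4 libraries passed a collagen gene after adjustment. DESeq2 left Col13a1 and Col25a1 without an adjusted p, and its count below takes them as not passed. At an adjusted p of 0.05, DESeq2 passed 0 of 32 collagen genes and 0.368% of all genes, edgeR's likelihood ratio test 0 and 0.206%, limma voom 0 and 0%, the fit with a block for the replicate number 0 and 0.00737%, and the fit with an offset for GC content 0 and 0%. At an unadjusted p under 0.05, DESeq2 passed 2 collagen genes and 6.2% of all genes, the likelihood ratio test 2 and 6.31%, limma voom 2 and 5.34%, the block 5 and 11.1%, and the GC offset 4 and 11%. Beside Col25a1, the gene added by DESeq2, the likelihood ratio test and limma voom was Col6a4.

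**Figure D2:**
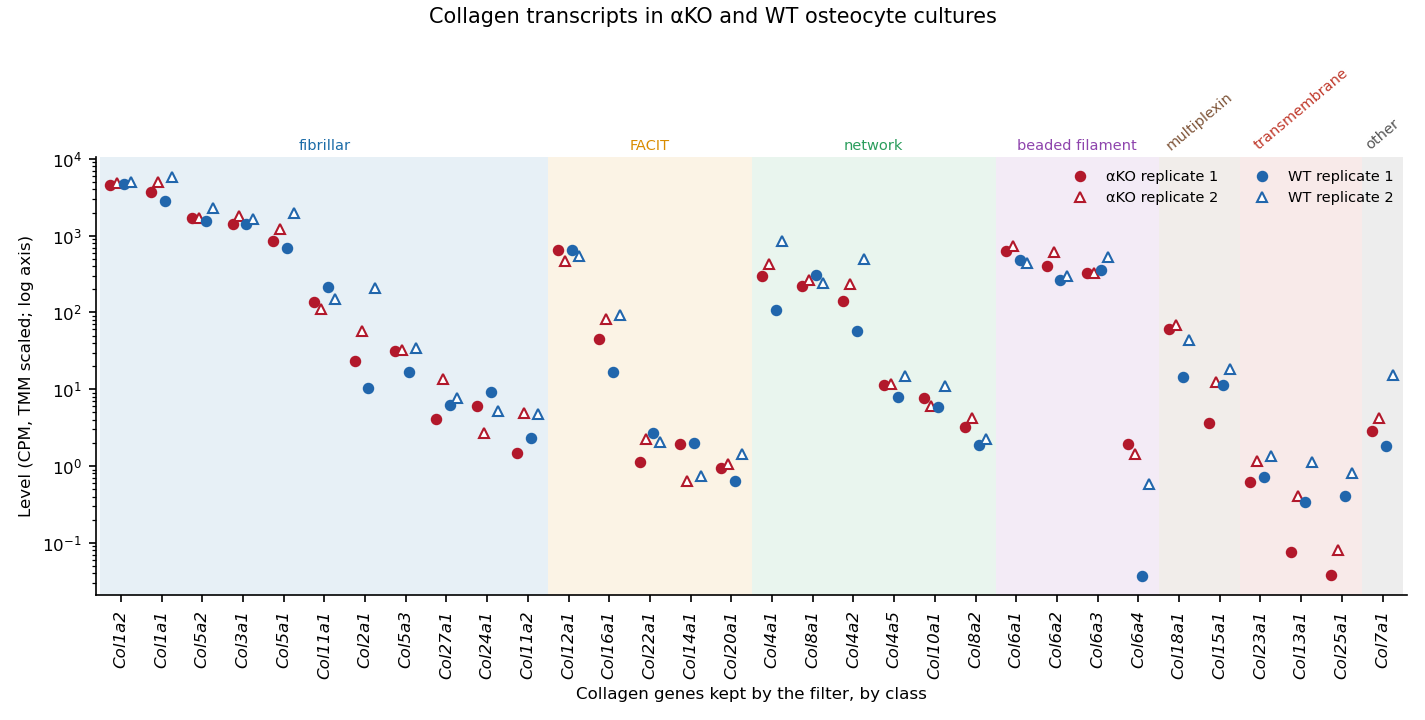
Level of the 32 collagen genes tested (y axis, CPM scaled by TMM, log axis), by class, with αKO replicates in red and WT replicates in blue (filled circles replicate 1, open triangles replicate 2); each point is 1 library. Col1a2 sits between 4515 and 5018 CPM in all 4 libraries, while WT replicate 2 lies far above WT replicate 1 for Col2a1, Col4a1 and Col4a2.

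Among the fibrillar genes, the levels of the type I chains did not part the genotypes. Col1a1, which codes for the α1 chain, was at 3683 and 5005 CPM in αKO osteocytes, against 2864 and 5809.6 CPM in WT osteocytes, or 4344 ± 935 CPM in αKO and 4337 ± 2083 CPM in WT osteocytes (SD, n = 2 each). The fitted log2 fold change was 0.0024 (standard error 0.458, unadjusted p = 0.996), and the WT libraries lay outside the αKO libraries on both sides. Col1a2, the α2 chain, was the steadiest of the abundant collagens. It was at 4515 and 4859.5 CPM in αKO osteocytes, against 4687 and 5018 CPM in WT osteocytes (fitted log2 fold change −0.050, standard error 0.309, unadjusted p = 0.878), and its highest library was 1.11-fold above its lowest. Col3a1 was at 1415 and 1789 CPM in αKO osteocytes, against 1403 and 1634 CPM in WT osteocytes (fitted log2 fold change 0.077, standard error 0.315, unadjusted p = 0.816). The genotypes overlapped for all 3 of these genes.

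Type V collagen helps start type I fibrils and limits their width. Col5a1 was at 849 and 1206 CPM in αKO osteocytes, against 690.3 and 1954 CPM in WT osteocytes (fitted log2 fold change −0.36, standard error 0.561, unadjusted p = 0.544). Col5a2 was at 1677 and 1699 CPM in αKO osteocytes, against 1572 and 2311 CPM in WT osteocytes (fitted log2 fold change −0.20, standard error 0.338, unadjusted p = 0.575), with the αKO libraries close together and between the WT libraries. Col5a3, a rarer chain, was at 31.4 and 32.04 CPM in αKO osteocytes, against 16.7 and 34.4 CPM in WT osteocytes (fitted log2 fold change 0.31, standard error 0.439, unadjusted p = 0.507). In each of the type V genes WT replicate 2 was the highest library, and WT replicate 1 the lowest.

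Col11a1 (type XI, the partner of type II collagen in cartilage fibrils and of type V chains elsewhere) was the 1 fibrillar gene whose genotypes did not overlap. It was at 136 and 109.7 CPM in αKO osteocytes, against 211 and 151 CPM in WT osteocytes (fitted log2 fold change −0.56, standard error 0.320, unadjusted p = 0.139; adjusted p = 0.996 in edgeR's quasi-likelihood test). Both αKO libraries lay below both WT libraries, and the nearest libraries, αKO replicate 1 and WT replicate 2, stood close together; the log2 fold change was −0.27 when WT replicate 1 was left out and −0.82 when WT replicate 2 was left out. Col2a1, the main collagen of cartilage, was at 23.1 and 58.1 CPM in αKO osteocytes, against 10.2 and 208 CPM in WT osteocytes (fitted log2 fold change −1.43, standard error 1.30, unadjusted p = 0.320). WT replicate 2 stood 20.3-fold above WT replicate 1, with both αKO libraries between them. The cartilage markers did not share 1 order of libraries. Sox9, a transcription factor of chondrocytes, was at 3.32 and 5.93 CPM in αKO, against 3.75 and 18.4 CPM in WT, and Acan, the core protein of aggrecan, had 1 and 0 counts in αKO, against 3 and 59 counts in WT. Comp, a matrix protein of cartilage and tendon, was at 5.14 and 11.8 CPM in αKO, against 5.43 and 9.89 CPM in WT (fitted log2 fold change 0.15), and Hapln1, the link protein of aggrecan, was at 0.267 and 0 CPM in αKO, against 0.936 and 0.654 CPM in WT. The whole list of 9 chondrocyte markers, 7 of them in the table and 3 tested, summed to 9.03 and 18.4 CPM in αKO and to 10.5 and 31.8 CPM in WT osteocytes, and its part in the level of Col2a1 was not tested. The median log2 fold change of the 3 (Sox9, Comp and Hapln1) was −1.26 with all libraries, −1.97 when WT replicate 1 was left out and 0.27 when WT replicate 2 was left out. Hapln1, with 7 and 0 counts in αKO, against 25 and 17 counts in WT, passed the filter on low counts only through its WT libraries. Its negative fold change thus owes something to that filter, and so does the median.

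The remaining fibrillar genes, Col11a2, Col24a1 and Col27a1, had means under 10 CPM and unadjusted p of 0.876, 0.261 and 0.606. Over all 11 fibrillar genes, 4 had a log2 fold change above 0 and 7 below, with a median of −0.12 and a range of −1.43 to 0.35.

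FACIT collagens bind to the surface of fibrils and link them to other matrix. Col12a1, which coats type I fibrils in dense tissue, held most of this class in every library. It was at 651 and 469 CPM in αKO osteocytes, against 655 and 546 CPM in WT osteocytes (fitted log2 fold change −0.10, standard error 0.322, unadjusted p = 0.767). Col16a1, a minor FACIT, was at 44.5 and 81.7 CPM in αKO osteocytes, against 16.8 and 92.1 CPM in WT osteocytes (fitted log2 fold change 0.21, standard error 0.818, unadjusted p = 0.804), and WT replicate 2 stood 5.47-fold above WT replicate 1. Of the 9 FACIT genes 5 were tested, 1 with a log2 fold change above 0 and 4 below (median −0.07), and in none did the genotypes part. Col14a1, Col20a1 and Col22a1 had at most 2.66 CPM in any library, and Col9a1, Col9a2, Col9a3 and Col19a1 were not tested.

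Among network-forming collagens, the type IV pair of basement membranes split the WT libraries, not the genotypes. Col4a1 was at 302 and 428 CPM in αKO osteocytes, against 107 and 839 CPM in WT osteocytes (fitted log2 fold change −0.38, standard error 0.913, unadjusted p = 0.698). Col4a2 was at 141 and 233 CPM in αKO osteocytes, against 57.9 and 502 CPM in WT osteocytes (fitted log2 fold change −0.58, standard error 0.962, unadjusted p = 0.571). WT replicate 1 was the lowest library and WT replicate 2 the highest for both genes, 7.84-fold apart for Col4a1 and 8.67-fold for Col4a2, and the αKO libraries lay between. These genes stand head to head on chromosome 8, with annotated start sites at 11312826 (Col4a1, minus strand) and 11312805 (Col4a2, plus strand), so that their first exons overlap by 22 bases; reads there could not be assigned without strand. Of the cell types that make basement membrane, pericyte and smooth muscle markers summed to 3825 and 2769 CPM in αKO and to 2399 and 5568 CPM in WT osteocytes, most of it Acta2 and Tagln. Among the markers tested, Acta2, Tagln, Pdgfrb, Cspg4, Mcam and Myh11 were each highest in WT replicate 2. Pdgfrb was at 250 and 232 CPM in αKO, against 185 and 541 CPM in WT. Only Rgs5, a rare pericyte marker, was highest in WT replicate 1, at 0.953 and 1.69 CPM in αKO, against 3.18 and 0.154 CPM in WT. Of that list 7 of 8 markers were tested, all 7 with a log2 fold change below 0 with all libraries (median −0.59), but the median was −1.14 when WT replicate 1 was left out and 0.35 when WT replicate 2 was left out. Endothelial markers summed to 40.9 and 48.3 CPM in αKO and to 25.5 and 34.8 CPM in WT (6 of 8 tested, 2 above 0 and 4 below), with a median of −0.043 with all libraries, 0.33 when WT replicate 1 was left out and −0.41 when WT replicate 2 was left out. Vwf held the largest part of that sum, at 33.5 and 38.7 CPM in αKO, against 11.3 and 26.5 CPM in WT. It was the only endothelial marker tested whose genotypes did not overlap. The part of either cell type was not tested.

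Col8a1, a short-chain collagen of vessel walls and of the cornea, was at 222 and 267 CPM in αKO osteocytes, against 306 and 245 CPM in WT osteocytes (fitted log2 fold change −0.17, standard error 0.297, unadjusted p = 0.587). Col4a5, a type IV chain of other basement membranes, was at 11.4 and 11.8 CPM in αKO osteocytes, against 7.94 and 14.7 CPM in WT osteocytes (fitted log2 fold change 0.034, standard error 0.440, unadjusted p = 0.942). Neither parted the genotypes. Col8a2, the partner chain of Col8a1, was lower in level, at 3.20 and 4.20 CPM in αKO osteocytes, against 1.87 and 2.27 CPM in WT osteocytes, and both αKO libraries lay above both WT libraries (fitted log2 fold change 0.83, standard error 0.466, unadjusted p = 0.131); it is named after its values were seen. Col10a1, known from hypertrophic chondrocytes, was at 5.88 to 11.05 CPM over the 4 libraries, and Col4a3, Col4a4 and Col4a6 had at most 6 counts in any library.

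The type VI genes, whose trimers form beaded microfibrils around cells, were the class in which the genotypes parted most often: none of the 4 genes tested overlapped, 3 above and 1 below WT, beside 33.2% of all genes without overlap. The class is singled out after its values were seen. Col6a2, the α2 chain, was at 398 and 609.6 CPM in αKO osteocytes, against 262 and 299 CPM in WT osteocytes (fitted log2 fold change 0.84, standard error 0.339, unadjusted p = 0.0533; adjusted p = 0.932 in edgeR's quasi-likelihood test). Col6a1, the α1 chain, was at 630.0 and 724 CPM in αKO osteocytes, against 479.8 and 443 CPM in WT osteocytes (fitted log2 fold change 0.55, standard error 0.286, unadjusted p = 0.108). Col6a3, the large α3 chain that completes the trimer, went the other way. It was at 322 and 328 CPM in αKO osteocytes, against 362 and 528 CPM in WT osteocytes (fitted log2 fold change −0.45, standard error 0.320, unadjusted p = 0.214). Col6a4, an alternative to the α3 chain in mouse, was rare, with 51 and 36 counts in αKO, against 1 and 15 counts in WT (fitted log2 fold change 2.45, standard error 1.08, unadjusted p = 0.0707), and it shares 127 exon bases with a gene on the other strand. Its WT libraries alone would not have passed the filter on low counts, so it was tested because of its αKO libraries, where it was high. None of the 4 passed an adjusted p of 0.05. Since the genotypes did not overlap in these genes, leaving out 1 library was bound to keep the sign, and only the size could move. Without each library in turn, Col6a1 was at 0.46 to 0.65, Col6a2 at 0.52 to 1.12 and Col6a3 at −0.68 to −0.19 on the log2 scale. With the GC offset Col6a1 was at 0.18, Col6a2 at 0.59 and Col6a3 at −0.60 (unadjusted p = 0.0337).

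Multiplexins sit at the border of basement membranes. Col18a1, whose protein is the source of the fragment endostatin, was at 61.7 and 68.7 CPM in αKO osteocytes, against 14.6 and 44.3 CPM in WT osteocytes (fitted log2 fold change 1.15, standard error 0.569, unadjusted p = 0.0979). Both αKO libraries lay above both WT libraries, and WT replicate 2 was 3.03-fold above WT replicate 1. The log2 fold change of Col18a1 was 0.58 when WT replicate 1 was left out and 2.12 when WT replicate 2 was left out. Col15a1, the other multiplexin, was at 3.58 and 12.3 CPM in αKO osteocytes, against 11.2 and 18.4 CPM in WT osteocytes (fitted log2 fold change −0.90, standard error 0.678, unadjusted p = 0.241), with overlap between the genotypes.

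Transmembrane collagens carry their repeat outside the cell on a single membrane anchor. Col25a1, known from neurons and from the innervation of muscle, had 1 and 2 counts in αKO, against 11 and 21 counts in WT. Its log2 fold change was −3.27 (standard error 0.858, unadjusted p = 0.0117, adjusted p = 0.902 in edgeR's quasi-likelihood test). Summed over libraries and scaled to depth, WT over αKO counts gave a ratio of 10.3 (95% interval 3.23 to 52.7, counting error only). The test rests on 35 counts in all, the gene passed the filter on low counts only through its WT libraries, and under a minimum count of 50 the gene was not tested. The unadjusted p was 0.131 without αKO replicate 1, 0.0697 without αKO replicate 2 and 0.00762 without WT replicate 1. Col13a1 and Col23a1 were also below 0 on the log2 scale, at −1.59 and −0.21, with unadjusted p of 0.181 and 0.762. Col7a1, which forms the anchoring fibrils of skin, was at 2.82 and 4.24 CPM in αKO osteocytes, against 1.80 and 15.2 CPM in WT osteocytes, and again WT replicate 2 stood far above the others.

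The 11 genes tested with low levels were Col7a1, Col8a2, Col10a1, Col11a2, Col13a1, Col14a1, Col20a1, Col22a1, Col23a1, Col24a1 and Col27a1. They ranged from 0.0762 to 15.2 CPM and from −1.59 to 0.83 in log2 fold change, 2 above 0 and 9 below, with unadjusted p of 0.131 to 0.95. The 12 genes not tested (Col4a3, Col4a4, Col4a6, Col6a5, Col6a6, Col9a1, Col9a2, Col9a3, Col17a1, Col19a1, Col26a1 and Col28a1) had 0 to 12 counts in any library. Col6a6 had 0 counts in all 4 libraries. In the fit with no filter on low counts, Col9a2 had an unadjusted p of 0.0247 and an adjusted p of 0.908 in edgeR, and the others with any count had an unadjusted p above 0.05.

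Subunits of 1 trimer can be compared as a ratio within a library, which no scaling of libraries can move. The TPM ratio of Col4a1 to Col4a2 was 2.09 and 1.79 in αKO and 1.80 and 1.63 in WT osteocytes (exact two-sided permutation test of the log2 ratio, p = 0.667). It ranged over 1.28-fold while the levels of the 2 genes ranged over 7.84-fold and 8.67-fold. The ratio of Col1a1 to Col1a2 was 0.736 and 0.929 in αKO and 0.551 and 1.04 in WT (p = 1, same exact test). Col3a1 and Col1a1 belong to different collagens and not to 1 trimer, and their ratio was 0.409 and 0.381 in αKO and 0.522 and 0.2998 in WT (p = 1, exact). The type I ratio thus ranged over 1.90-fold in the 4 libraries, more widely than the type IV ratio. The ratios were not corrected for the trend with GC content described below. The ratio of Col6a1 to Col6a2 was 2.32 and 1.74 in αKO and 2.68 and 2.17 in WT (p = 0.667, exact). The ratio of Col6a2 to Col6a3, chosen after the values were seen, was 2.23 and 3.36 in αKO and 1.31 and 1.02 in WT, a difference of 1.24 on the log2 scale (p = 0.33, exact, the smallest that 2 libraries against 2 allow). The size of each ratio depends on the gene lengths behind TPM, which are not given in the sources used here; its difference between libraries does not.

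**Figure D3:**
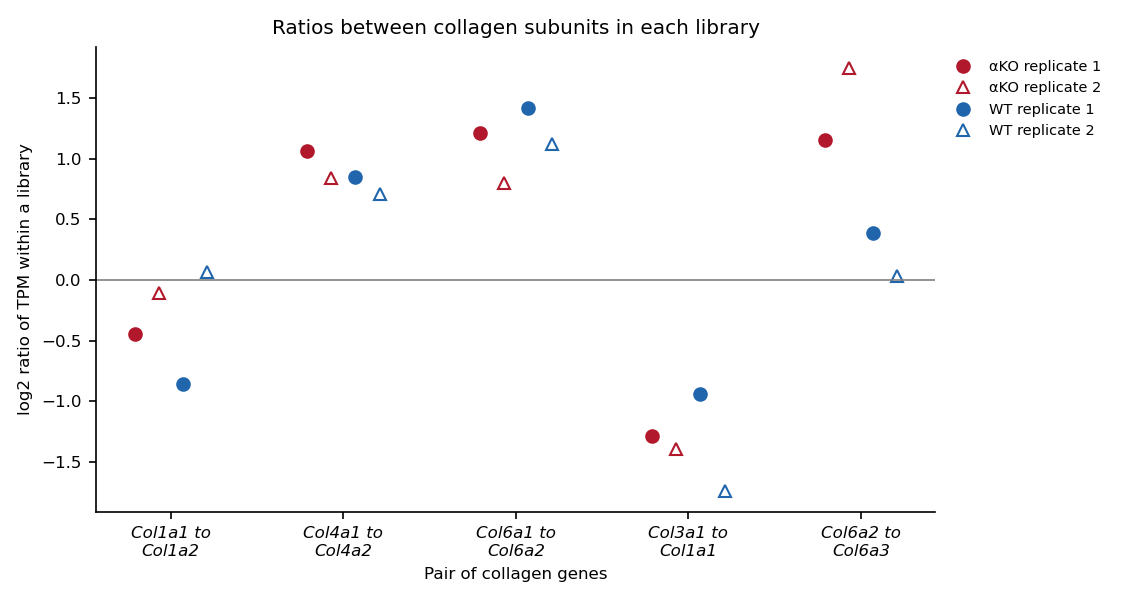
Log2 ratio of TPM between collagen genes within each library (y axis), for the 5 pairs on the x axis, with αKO replicates in red and WT replicates in blue (filled circles replicate 1, open triangles replicate 2). The type IV ratios cluster between 1.63 and 2.09 before the log, and only for Col6a2 to Col6a3 do both αKO libraries lie above both WT libraries.

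Collagen genes were more often far apart between replicates than genes in general. αKO replicates were more than 2-fold apart for 7 of 32 collagen genes (21.9%), beside 8.61% of all genes, and WT replicates for 14 (43.8%), beside 32.9%. The 7 in αKO were mostly rare. Col2a1 and Col15a1 had means of 74.9 and 11.4 CPM, and Col11a2, Col13a1, Col14a1, Col24a1 and Col27a1 had means under 10 CPM. The median absolute log2 ratio between replicates was 0.49 in αKO and 0.91 in WT for collagen genes, and 0.31 in αKO and 0.68 in WT for all genes. In 23 collagen genes replicate 1 was below replicate 2 in both genotypes, in 4 it was above in both, and in 5 the genotypes went opposite ways.

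Replicate differences ran with the GC content of the transcripts. Collagen transcripts were richer in GC than most, with a median of 55.9% (range 45.9% to 62.9%) beside 49.6% over 13507 genes with a known value. Spearman's rho of the log2 ratio of replicate 1 over replicate 2 with GC content was −0.53 in αKO and −0.64 in WT across the 32 collagen genes. Across all genes it was −0.58 in αKO and −0.71 in WT. For the fold change of αKO over WT, rho was 0.14 across collagen genes and 0.22 across all genes. Genes share the same 4 libraries and are not independent replicates, so these values carry no p. The trend of all genes, read at the GC content of each collagen gene, left part of the difference for some of them: between WT replicates 1 and 2, Col2a1 differed by −4.35 on the log2 scale, −2.21 of it beyond the trend, Col4a1 by −2.97, −1.71 of it beyond, and Col4a2 by −3.12, −1.29 of it beyond. The rare Col6a4 differed by −3.63, −3.07 of it beyond the trend, the most of any collagen gene tested. Col1a1 and Col1a2 lay above the trend, by 0.48 and 0.76. These residuals were computed after the data were seen.

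**Figure D4:**
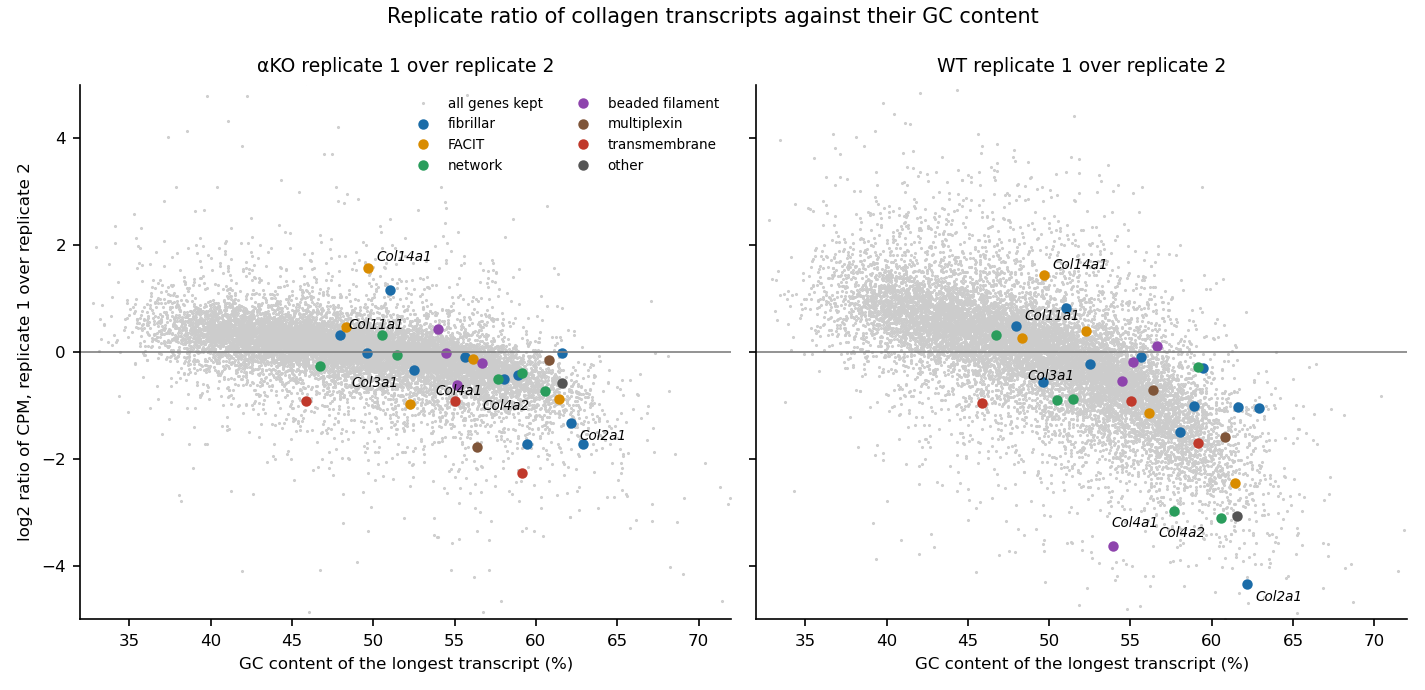
Log2 ratio of CPM of replicate 1 over replicate 2 (y axis) against the GC content of the longest transcript in percent (x axis), for αKO (left) and WT (right); grey points are all genes tested with a known GC content and coloured points the 32 collagen genes by class. Collagen genes follow the slope of all genes (rho −0.53 in αKO and −0.64 in WT), and Col2a1, Col4a1, Col4a2 and Col6a4 lie below it in WT.

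What the comparison of genotypes shows for collagens depends on which WT library is kept. Without WT replicate 1, 3 of 33 collagen genes passed an adjusted p of 0.05, all lower in αKO (5.74% of all genes passed), and 8 had an unadjusted p under 0.05 (24.2%, beside 20.8% of all genes). The 3 were Col2a1 (−2.33), Col4a2 (−1.40) and Col7a1 (−2.09), in log2 fold change. Without WT replicate 2, 6 of 31 passed, all higher in αKO (4.88% of all genes passed), and 10 had an unadjusted p under 0.05 (32.3%, beside 22.8%). The 6 were Col2a1 (1.95), Col4a1 (1.73), Col4a2 (1.66), Col6a4 (5.30), Col16a1 (1.87) and Col18a1 (2.12). Col2a1 and Col4a2 thus passed in opposite directions, and the median over the collagen genes was −0.40 when WT replicate 1 was left out and 0.46 when WT replicate 2 was left out. In both fits WT was a single library, taken to vary like the αKO pair, which was the closer of the pairs. Without αKO replicate 1 no collagen gene passed an adjusted p of 0.05 (0.0284% of all genes) and 0 had an unadjusted p under 0.05 (2.14%). Without αKO replicate 2 the counts were 0 (0.0071%) and 2 (1.65%).

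**Figure D5:**
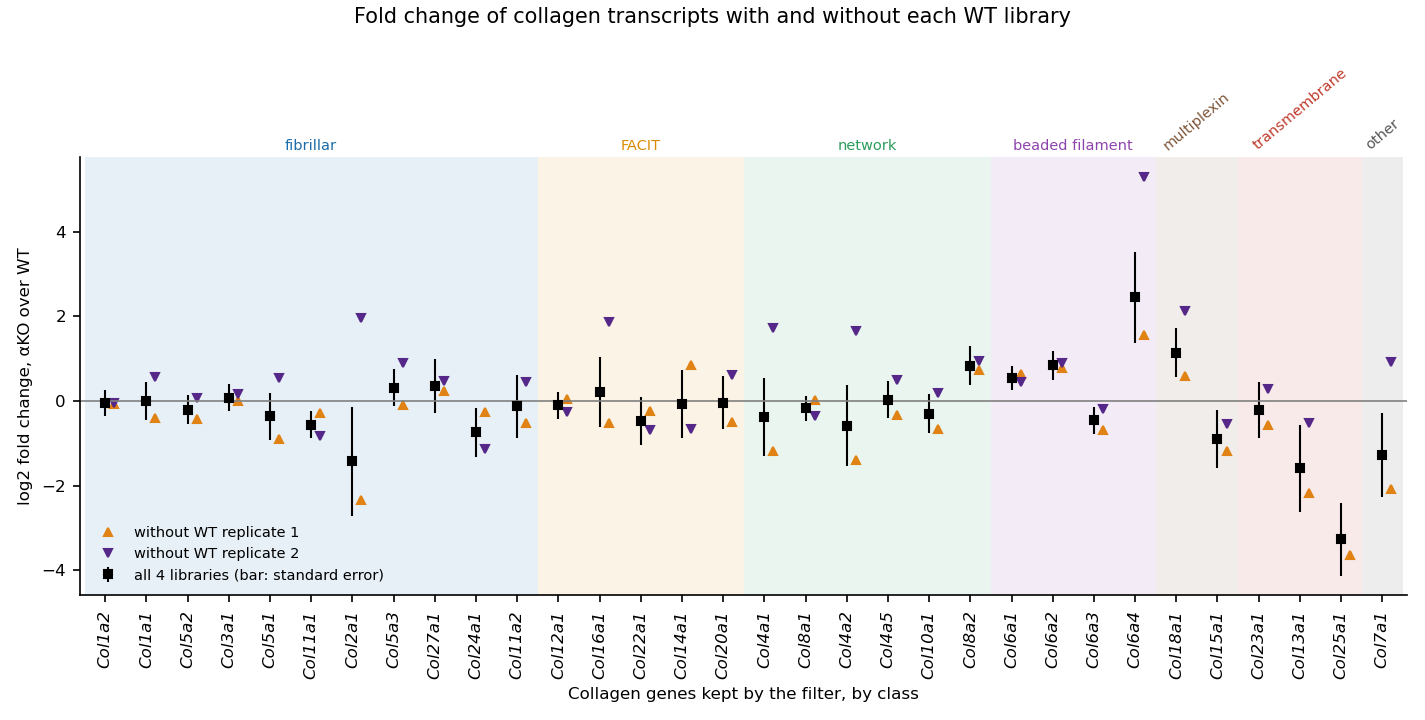
Log2 fold change of αKO over WT (y axis) for the 32 collagen genes tested, by class, from all 4 libraries (black squares, bars show the standard error), without WT replicate 1 (orange, upward triangles) and without WT replicate 2 (purple, downward triangles). The triangles lie on opposite sides of 0 for Col2a1, Col4a1 and Col4a2. They lie on the same side for Col6a1, Col6a2, Col6a3 and Col11a1, which was bound to be so since their genotypes did not overlap. Col25a1 was not tested without WT replicate 2.

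How many collagen genes lay below 0 moved with the processing, while their median stayed below 0 in every setting run with all 4 libraries. Of the 32 genes, 21 were below 0 with TMM, 24 with library sizes alone, 25 with the GC offset and 18 with limma voom, and 10 of 31 were below 0 without WT replicate 2. Library sizes alone also moved the median of all genes to −0.09. With the GC offset the median of the collagen genes was −0.28, beside −0.0034 for all genes, and Col18a1, Col25a1, Col6a3 and Col6a4 had an unadjusted p under 0.05.

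The genes that make, join, sense and degrade collagen were read from lists made by known role. Of 24 genes of procollagen synthesis and folding, 23 were tested, 8 above and 15 below 0 in log2 fold change (median −0.19), and 1 had an unadjusted p under 0.05, lower in αKO, beside 5.39% of all genes in either direction and 2.59% lower. That gene was P3h2, a hydroxylase of proline, at 0.991 and 0.888 CPM in αKO, against 2.17 and 2.96 CPM in WT (fitted log2 fold change −1.45, standard error 0.509, unadjusted p = 0.0348). The most abundant were P4hb, a subunit of the prolyl hydroxylase that steadies the helix, at 1484 and 1224 CPM in αKO, against 1375 and 1414 CPM in WT, and Serpinh1, the chaperone of procollagen in the endoplasmic reticulum. Serpinh1 was at 653 and 965 CPM in αKO, against 583 and 1429 CPM in WT, with the same order of libraries as Col5a1. The genotypes overlapped for both.

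Of 14 genes of procollagen cleavage and crosslinking, 13 were tested, 3 above and 10 below 0 (median −0.51), none at an unadjusted p under 0.05. Sparc, which binds procollagen, was at 3022 and 2951 CPM in αKO, against 4582 and 3952 CPM in WT (fitted log2 fold change −0.51, standard error 0.310, unadjusted p = 0.155). Lox, which crosslinks the fibrils, was at 1764 and 1431 CPM in αKO, against 2814 and 1741 CPM in WT (fitted log2 fold change −0.51, standard error 0.375, unadjusted p = 0.228). Of 10 collagen receptors 9 were tested, 2 above and 7 below 0 (median −0.29), and 2 had an unadjusted p under 0.05, both lower in αKO (2.59% of all genes). Ddr2, a receptor kinase for fibrillar collagen, was at 176 and 156 CPM in αKO, against 339 and 259 CPM in WT (fitted log2 fold change −0.85, standard error 0.299, unadjusted p = 0.0349), and Itga10, an integrin chain of chondrocytes, was at 1.64 and 1.41 CPM in αKO, against 6.70 and 3.66 CPM in WT (fitted log2 fold change −1.76, standard error 0.527, unadjusted p = 0.0194). Of 9 proteases 8 were tested, 1 above and 7 below 0 (median −0.75 with all libraries, −0.53 when WT replicate 1 was left out and −0.31 when WT replicate 2 was left out), and 1 had an unadjusted p under 0.05, lower in αKO (2.59% of all genes). Mmp13, the collagenase of bone and cartilage, was at 348 and 381 CPM in αKO, against 1109 and 549 CPM in WT (fitted log2 fold change −1.19, standard error 0.424, unadjusted p = 0.0367). P3h2, Ddr2, Itga10 and Mmp13 each had an adjusted p of 0.902 by edgeR.

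The markers of matrix-forming cells stood beside these values as follows. All 10 osteoblast markers were below 0 in αKO over WT (median −1.35 with all libraries, −1.04 when WT replicate 1 was left out and −1.42 when WT replicate 2 was left out), 5 at an unadjusted p under 0.05 (2.59% of all genes were lower at that threshold). Of these 5, Bglap had 5 and 7 counts in αKO, against 28 and 105 counts in WT. It passed the filter on low counts only through its WT libraries. The 10 markers summed to 16678 and 11872 CPM in αKO and to 20175 and 14108 CPM in WT osteocytes, most of it Spp1. Fibroblast and periosteal markers summed to 1722 and 1068 CPM in αKO and to 5363 and 1175 CPM in WT, with 3 of 9 above and 6 below 0, and with a median of −0.54 with all libraries, 0.73 when WT replicate 1 was left out and −1.09 when WT replicate 2 was left out. Postn, which stands in the osteoblast list as well, held 4540.4 CPM of the sum in WT replicate 1, and Ctsk is also among the proteases. WT replicate 1, with the highest sum of fibroblast markers, was the lowest library for Col1a1 and the type V genes, and their part in the levels of collagens was not tested. The fold changes of Col1a1 and Col1a2, at 0.0024 and −0.050 on the log2 scale, stood near 0 beside the osteoblast median of −1.35. Spp1, the most abundant gene of the osteoblast list, was also near 0, at −0.047, and the other markers of that list ran from −0.85 (Alpl) to −3.40 (Bglap). Which cells of these mixed cultures the Spp1 RNA came from was not tested.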

How the data were processed

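The authors trimmed reads with Trimmomatic 0.35, counted them with HTSeq 0.9.1 on build mm10 and used DESeq2 1.16.1 in R 3.4.0; the aligner, annotation and strand setting are not given in the sources used here. The deposited raw counts were used as they are, and every fold change rests on these counts. The authors' TPM, which sum to the same total in each library, were used for levels between genes, sums of collagen classes and ratios of subunits. The deposited normalized counts and the authors' comparison (fold changes and p-values) were not used. Genes passing filterByExpr (minimum count 10) were normalized by TMM and compared with edgeR 4.0.16 (glmQLFit, R 4.3.3) over all genes, with Benjamini-Hochberg adjustment; single values per library had exact permutation tests (SciPy 1.17.1). Alternatives used DESeq2 1.42.0, limma 3.58.1 and the settings named in the closing section. The GC offset is a lowess trend (span 0.3) of each library on transcript GC content. The scripts were tested on simulated data. Genes were given values in each library if their mean was at least 10 CPM, their unadjusted p under 0.05, or their genotypes did not overlap with an absolute log2 fold change above 1. The collagen genes and all lists were chosen with earlier results of these data known. Symbols were matched to GENCODE vM21 (GRCm38) for positions, sequences and GC content. Intervals cover counting error only.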

Additional observations from a re-analysis of the deposited data

How the results depend on the processing

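Of 291 alternative values of the 21 collagen genes described, 252 kept direction and side of the threshold, 34 reversed, and 5 kept direction and newly passed an adjusted p of 0.05. The value of Col25a1 by DESeq2 is counted among the 252 for its direction alone, since it had no adjusted p. Of the reversed values, those of Col2a1, Col4a1 and Col4a2 without WT replicate 2 also passed (adjusted p = 0.0495, 0.0214 and 0.0296 in edgeR). Genes passing an adjusted p of 0.05 numbered 0 in the fit reported, 50 by DESeq2, 28 by the likelihood ratio test, 1 with the replicate block, and 1 to 806 without 1 library each. Genes with an unadjusted p under 0.05 numbered 732 as reported, 1501 with the replicate block, 1488 with the GC offset, 1803 with both, and 233 to 3171 without 1 library each. For collagen genes the count was 1 as reported, 2 with no filter on low counts, 0 with a minimum count of 50, 2 each by DESeq2, the likelihood ratio test and limma voom, 5 with the replicate block, 4 with the GC offset, 5 with both, and 0 to 10 without 1 library each. The median log2 fold change of the collagen genes ran from −0.40 to 0.46 without 1 library each. The share of counts and the ratio of Col1a1 to Col1a2 did not move beyond their spread in any alternative run.

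The reversed values were in log2 fold change. Col1a1, at 0.0024 as reported, was at −0.0040 with DESeq2 size factors and by DESeq2, −0.072 with library sizes alone, −0.00080 with no filter, −0.0028 with a minimum count of 50, −0.28 with the GC offset and −0.26 with the replicate block and GC offset. Col3a1 was at −0.0048 with library sizes alone, −0.015 with the GC offset and −0.018 with both corrections, and Col5a3 at −0.018 and −9.2e-05 with these last settings. Col4a5 was at −0.045 with library sizes alone. Col4a1 and Col4a2 were at 0.26 and 0.087 by limma voom and at 0.26 and 0.085 with the replicate block. Leaving out 1 library each gave −0.40 to 0.56 for Col1a1, −0.093 to 0.0013 for Col1a2, −2.33 to 1.95 for Col2a1, −0.090 to 0.24 for Col3a1, −1.18 to 1.73 for Col4a1, −1.40 to 1.66 for Col4a2, −0.32 to 0.51 for Col4a5, −0.90 to 0.54 for Col5a1, −0.43 to 0.065 for Col5a2, −0.093 to 0.89 for Col5a3, −0.36 to 0.022 for Col8a1, −0.36 to 0.13 for Col12a1 and −0.52 to 1.87 for Col16a1. The cause was not tested. Deviations from the genotype mean correlated at 0.468 between libraries of the same replicate number. With 2 pairs and no label that ties the numbers to a shared day or litter, whether these libraries share more than a number cannot be told. No call at an adjusted p of 0.05 among collagen genes came or went with the block.

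Depth limits the rare collagens: 12 genes had at most 12 counts in any library, and Col25a1 rests on 35 counts.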

Other observations

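Of the collagen genes with both αKO libraries above both WT libraries, 3 are neighbours on chromosome 10 of GRCm38. Col6a2 lies from 76595762 to 76623630, Col6a1 from 76708792 to 76726168 and Col18a1 from 77052178 to 77166548, all on the minus strand. This stretch was chosen after the values were seen and carries no test. It holds 5 genes tested, and the other 2, Pcbp3 and Slc19a1, had log2 fold changes of −0.49 and −0.38 with overlap between the genotypes. Slc19a1, which codes for a folate carrier, lies on the plus strand and overlaps the end of Col18a1 with no shared exon base.

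Col9a2, a FACIT chain of cartilage, did not pass the filter on low counts and had 6 and 5 counts in αKO, against 0 and 0 counts in WT osteocytes. With no filter its unadjusted p was 0.0247 and its adjusted p 0.908 in edgeR, and no fold is given since both WT libraries were at 0. It is named after its values were seen.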
